A study of Mus musculus with 2207 samples.

Results

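The H3K9 demethylases described here are the 7 genes *Kdm1a*, *Kdm3a*, *Kdm3b*, *Jmjd1c*, *Kdm4a*, *Kdm4b* and *Kdm4c*, chosen by symbol as lysine demethylases that act on histone H3 lysine 9, out of 52636 gene rows in the expression tables. Their RNA was measured in 2207 single nuclei of mouse cortex by RamDA-seq, a full-length total RNA method, and each nucleus had been labelled by the authors as a neuron, microglia or oligodendrocyte. All mice were C57BL/6 of 14 weeks of age, and each pool of nuclei came from 3 mice. By the sample records, all had received tamoxifen in 2 doses of 100 mg/kg, the first when they were 3 weeks old. In the study's own description of its single-nucleus groups, tamoxifen is named only for the 4 pools sorted into 384-well plates. The 2 pools sorted into 96-well plates (730 nuclei) were WT (*Ehmt1*+/+) and *Ehmt1*Δ/+, and 4 pools (1477 nuclei) were sorted into 384-well plates. A pool held between 16 and 36 microglia, between 46 and 73 oligodendrocytes and neurons for the rest.

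The 384-well pools all carried the *Ehmt1* iTg transgene, from which FLAG-tagged GLP is expressed once Cre has acted. By the genotype labels, WT and *Ehmt1*Δ/+ in 384-well plates had no *CamKII-CreER*, whereas iTg (*Ehmt1*+/+) and the combined genotype *Ehmt1*Δ/+; iTg carried *CamKII-CreER*, a driver of tamoxifen-dependent Cre in forebrain neurons and not in glia. The study's own description differs from these labels: it gives all 4 of these groups *CamKII-CreER*, in which case WT and *Ehmt1*Δ/+ would differ from the other pools in the transgene. The genotype labels were followed here. *Ehmt1*Δ/+ mice lack 1 functional copy of *Ehmt1*, which encodes the H3K9 methyltransferase GLP, and model Kleefstra syndrome. Since the labels do not say which mouse a nucleus came from, every test was made over pools, and the spread between mice of a pool was not measured.

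Methylation of H3K9 marks repressed chromatin, and its level depends on methyltransferases such as GLP and G9a and on demethylases that remove it. *Kdm1a* encodes LSD1, a flavin-dependent amine oxidase that removes mono- and dimethyl groups and works in the CoREST complex. *Kdm3a*, *Kdm3b* and *Jmjd1c* (also named *Kdm3c*) encode JmjC proteins of the KDM3 family, which are linked to mono- and dimethylated H3K9, the marks that GLP and G9a make. *Kdm4a*, *Kdm4b* and *Kdm4c* encode JmjC proteins that remove tri- and dimethyl groups from H3K9 and, for these members, also from H3K36.

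On chromosome 4 of mm10 lie *Kdm1a* at chr4:136550540-136602723 on the minus strand, *Kdm4a* at chr4:118136957-118180043 on the minus strand and *Kdm4c* at chr4:74242497-74405860 on the plus strand. *Kdm3a* spans chr6:71588972-71632990 on the minus strand, *Jmjd1c* chr10:67096125-67256326 on the plus strand, *Kdm4b* chr17:56326062-56402870 on the plus strand and *Kdm3b* chr18:34777047-34838660 on the plus strand. These spans hold the whole gene, exons, introns and UTRs together. The deposited RPKM values are given per gene and do not separate isoforms. Reads were recovered from them with the length of a gene's exons together, without introns. For 6 members, between 97.9% and 100.0% of values above 0 were whole reads, but for *Kdm3b* 46.5% were, so for most nuclei its values do not come from whole reads. The cause was not tested, and the level of *Kdm3b* is uncertain.

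Depth differed between the samples in a way that touches glia. The median read total of a pool lay between 323273 and 397880 in neurons of both plate formats. In microglia and oligodendrocytes it lay between 441701 and 510639 in 96-well and between 39940 and 54877 in 384-well plates. The authors set the labels with marker genes from the same values, so markers high in their own label are a description and not a check. The summed RPKM of 9 microglia markers was between 2738 and 4444 in microglia and at most 13.7 elsewhere. That of 8 oligodendrocyte markers was between 3253 and 4595 in oligodendrocytes and at most 28.4 elsewhere. The sum of 6 neuron markers reached 75.6 in microglia and 61.1 in oligodendrocytes of the WT 96-well pool (21.7% and 17.5% of its level in neurons), against 1.49 and 4.78 in the lowest pools. The glia of the WT 96-well pool therefore carried neuron RNA, and results were recomputed without that pool. The *Ehmt1*Δ/+ 96-well glia are not shown to be free of it. Each of the 6 neuron markers differed less between neurons and oligodendrocytes over the 96-well than over the 384-well pools. For *Gad1* the mean log2 difference was 2.49 over the 96-well pools, with no pool below 2.19, against 4.58 over the 384-well pools. *Ehmt1* RNA was higher in the pools labelled *Ehmt1*Δ/+, at 31.2 against 18.7 RPKM in 96-well and 31.7 against 19.5 RPKM in 384-well neurons. Gene-level values cannot single out the deleted part, and so genotype directions rest on the labels.

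**Figure D1:**
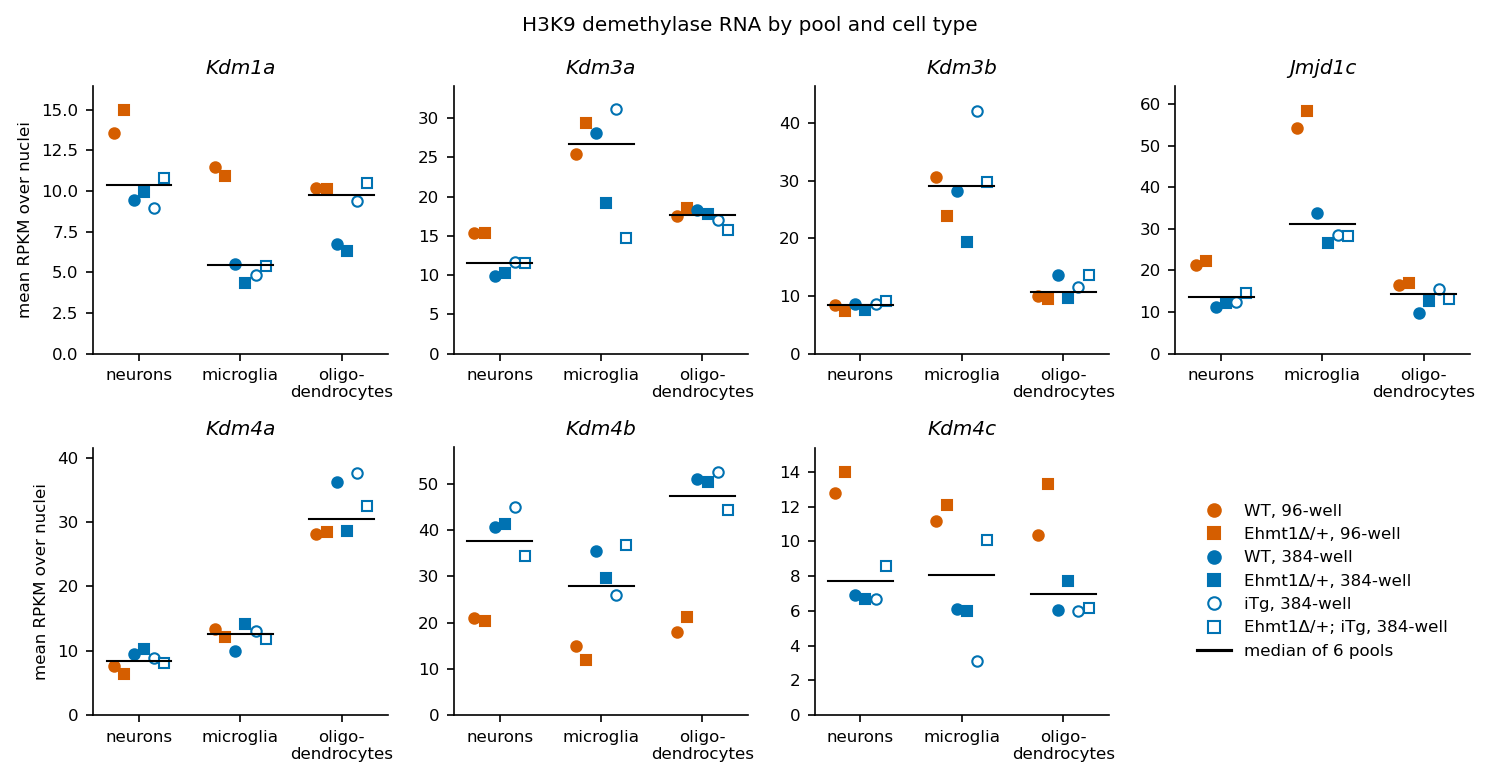
Mean RPKM over nuclei (y axis, linear, from 0) of the 7 members in neurons, microglia and oligodendrocytes, with 1 symbol for each of 6 pools and a line at their median. *Kdm4a* sits between 28.1 and 37.7 RPKM in oligodendrocytes and at or below 14.2 RPKM in all other profiles, while *Kdm3b* and *Jmjd1c* are highest in microglia.

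The first question was in which cell types the H3K9 demethylases are expressed. *Kdm4a* stood out in oligodendrocytes, *Kdm3b* and *Jmjd1c* in microglia, and no member was listed at 0 in any pool and cell type. Levels are mean RPKM of the nuclei that share a pool and a cell type, and differences are on the log2(RPKM + 0.1) scale, tested by limma over 18 profiles (6 pools by 3 cell types) with the pool as a block and Benjamini-Hochberg adjustment over 25916 genes. A gene was called at an adjusted p below 0.05. The authors set the cell types from the same expression values, and so the tests compare groups that were not formed independently of the genes.

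Between neurons and oligodendrocytes, 0 members were higher and 3 lower in neurons, where 38.7% of all genes tested were higher and 12.6% lower (51.3% in either direction). Between neurons and microglia, 2 were higher and 4 lower in neurons, beside 44.8% and 19.3% of all genes (64.1%). Between microglia and oligodendrocytes, 2 were higher and 2 lower in microglia, beside 21.3% and 21.2% (42.5%). The median difference of the 7 members was -0.17, -0.56 and -0.10 in these comparisons, beside 0.61, 0.85 and -0.08 over all genes tested. Neuron profiles were thus higher over the bulk of genes, and centring each profile on its median turned the 3 called members of the neuron minus oligodendrocyte comparison into 7 of 7 lower in neurons (31.4% of all genes lower, 25.2% higher) and the split of neuron minus microglia into 0 higher and 6 lower (36.1% lower and 30.9% higher of all genes). Averaging log2(RPKM + 1) over nuclei, which gives more weight to the share of nuclei with reads, called 3 members higher and 1 lower in neurons than in oligodendrocytes (68.1% and 8.29% of all genes) and 3 higher and 3 lower than in microglia (65.4% and 12.7%). For microglia minus oligodendrocyte, centring called 2 members higher and 1 lower (21.6% and 19.7% of all genes) and the mean of log values 3 higher and 2 lower (21.3% and 18.4%). Without the WT 96-well pool, whose glia carried neuron RNA, 2, 5 and 4 members were called in the 3 comparisons, beside 47.6%, 61.4% and 39.3% of all genes. In the first comparison 1 member, *Kdm4a*, was called without the *Ehmt1*Δ/+ 96-well, the WT 384-well or the *Ehmt1*Δ/+ 384-well pool (47.4%, 48.8% and 48.9% of all genes), and also in the 96-well pools alone (42.8%) and the 384-well pools alone (43.7%).

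*Kdm4a*, a demethylase of H3K9me3 and H3K36me3, had the widest range among cell types. In oligodendrocytes its mean was 28.1 and 28.4 RPKM in the WT and *Ehmt1*Δ/+ 96-well pools, and 36.2, 28.6, 37.7 and 32.5 RPKM in the 384-well pools, given here and below as WT, *Ehmt1*Δ/+, iTg and the combined genotype *Ehmt1*Δ/+; iTg. In neurons the same 6 pools were at 7.61, 6.36, 9.43, 10.2, 8.88 and 8.08 RPKM, and in microglia at 13.4, 12.1, 9.98, 14.2, 13 and 11.8 RPKM. The oligodendrocyte values did not overlap those of either other cell type. *Kdm4a* was 3.77-fold lower in neurons than in oligodendrocytes (log2 difference -1.92 ± 0.16 (SE, n = 6 pools), limma adjusted p = 5.31e-07, lower in 6 of 6 pools), and the difference was -2.01 within the 96-well and -1.87 within the 384-well pools. Microglia were 2.56-fold below oligodendrocytes (-1.35 ± 0.16, limma adjusted p = 1.73e-05, 6 of 6 pools). The smaller difference of neurons from microglia, -0.56 ± 0.16 (limma adjusted p = 0.00916), became 0.25 (adjusted p = 0.193) when log2(RPKM + 1) was averaged over nuclei.

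The sequence of the *Kdm4a* promoter is shown because its gene marked 1 cell type. The RefSeq promoter table (GRCm38.p6) was searched on both strands for CCAAT (the CCAAT box), GGGCGG (the GC box), ACAAAG (a SOX-type core), GAGGAAGT (a PU.1-type core) and CACGTG (the E-box, which reads the same on both strands) in the 250 bases before each start. In all 32851 such windows, 33.8% held CCAAT, 32.7% GGGCGG, 16.5% ACAAAG, 2.44% GAGGAAGT and 6.02% CACGTG. Capitals mark the matches. The *Kdm4a* window, chr4:118180044-118180293 on the minus strand, held 1 CCAAT as its reverse complement and none of the other letters searched, with 12 CpG against a median of 6 over all windows.
Kdm4a: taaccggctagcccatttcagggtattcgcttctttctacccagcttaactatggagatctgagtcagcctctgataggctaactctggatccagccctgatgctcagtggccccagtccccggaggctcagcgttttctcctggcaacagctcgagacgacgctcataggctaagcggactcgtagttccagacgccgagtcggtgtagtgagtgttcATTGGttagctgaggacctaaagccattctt

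In the KDM3 family, *Jmjd1c* and *Kdm3b* were highest in microglia. *Jmjd1c* was at 54.3 and 58.3 RPKM in microglia of the WT and *Ehmt1*Δ/+ 96-well pools, and at 33.7, 26.7, 28.5 and 28.3 RPKM in the 384-well pools in the same order. In neurons it was at 21.4, 22.3, 11.2, 12.2, 12.5 and 14.5 RPKM, and in oligodendrocytes at 16.5, 16.9, 9.72, 12.6, 15.5 and 13 RPKM. Every microglia value lay above every value of the other cell types. Neurons were 2.40-fold below microglia (-1.26 ± 0.17, limma adjusted p = 2.62e-05, 6 of 6 pools) and microglia 2.62-fold above oligodendrocytes (1.39 ± 0.17, limma adjusted p = 1.89e-05, 6 of 6 pools). The microglia minus oligodendrocyte difference was 1.75 within the 96-well and 1.21 within the 384-well pools. Neurons and oligodendrocytes differed by 0.13 (95% interval -0.24 to 0.50, limma adjusted p = 0.559), which turned to -0.82 (limma adjusted p = 0.00739) with centred profiles. The mean of log2(RPKM + 1) over nuclei gave 0.50 (limma adjusted p = 0.00894), so its direction depended on the scale.

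*Kdm3b* was at 30.7 and 23.9 RPKM in microglia of the 96-well pools (WT, then *Ehmt1*Δ/+) and at 28.3, 19.4, 42.1 and 29.8 RPKM in those of the 384-well pools in the same order. Its levels in neurons lay between 7.39 and 9.18 RPKM, and those in oligodendrocytes between 9.41 and 13.6 RPKM. The groups overlapped nowhere, since the highest neuron value was below the lowest oligodendrocyte value. Neurons were 3.39-fold below microglia (-1.76 ± 0.16, limma adjusted p = 7.79e-07, 6 of 6 pools), and this difference was -1.76 in each plate format. Microglia were 2.52-fold above oligodendrocytes (1.33 ± 0.16, limma adjusted p = 1.90e-05, 6 of 6 pools). Neurons were also below oligodendrocytes, by 0.43 ± 0.16 on the log2 scale (limma adjusted p = 0.0412, 6 of 6 pools), a call that was lost without the WT 96-well pool (-0.47, adjusted p = 0.0623), the *Ehmt1*Δ/+ 96-well pool (-0.45, 0.0841), the WT 384-well pool (-0.38, 0.111), the *Ehmt1*Δ/+ 384-well pool (-0.44, 0.0580) or the *Ehmt1*Δ/+; iTg pool (-0.40, 0.110). Averaging log2(RPKM + 1) over nuclei gave 0.16 (adjusted p = 0.253).

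*Kdm3a*, a KDM3 member known from hypoxia and nuclear receptor responses, was higher in both glial types than in neurons. In neurons it was at 15.4 and 15.3 RPKM in the 96-well pools and at 9.94, 10.3, 11.6 and 11.5 RPKM in the 384-well pools in the same order. In microglia it ranged from 14.7 RPKM in the *Ehmt1*Δ/+; iTg pool to 31.1 RPKM in the iTg pool (median 26.8), and in oligodendrocytes from 15.7 to 18.5 RPKM (median 17.6). Neurons were below microglia (-0.97 ± 0.18, limma adjusted p = 0.000495) and below oligodendrocytes (-0.52 ± 0.18, limma adjusted p = 0.0318), each in 6 of 6 pools. The second call was lost without the *Ehmt1*Δ/+ 96-well (adjusted p = 0.0536), WT 384-well (0.0903), *Ehmt1*Δ/+ 384-well (0.0891) or iTg pool (0.0569), and its value was -0.23 within the 96-well and -0.66 within the 384-well pools. The mean of log2(RPKM + 1) over nuclei turned its direction (0.31, adjusted p = 0.126). Microglia and oligodendrocytes differed by 0.45 ± 0.18 (limma adjusted p = 0.0670).

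A promoter window of *Jmjd1c*, the microglia-high member with the most reads, is shown. The window, chr10:67126838-67127087 on the plus strand (GRCm38.p6, RefSeq), is that of the more upstream of 2 RefSeq starts. It lies inside the span of the gene given above, which begins further upstream at 67096125, where no window was taken. It held 3 GGGCGG, in capitals on either strand, and 40 CpG with 79.6% G and C, against medians of 6 CpG and 52.4% over all windows. The other motifs searched were not among its letters. The window of the other start, chr10:67185500-67185749, held 2 ACAAAG and none of the other motifs searched, with 11 CpG and 47.2% G and C. Like the *Kdm4a* match, these are a description of letters and not of a bound site.
Jmjd1c: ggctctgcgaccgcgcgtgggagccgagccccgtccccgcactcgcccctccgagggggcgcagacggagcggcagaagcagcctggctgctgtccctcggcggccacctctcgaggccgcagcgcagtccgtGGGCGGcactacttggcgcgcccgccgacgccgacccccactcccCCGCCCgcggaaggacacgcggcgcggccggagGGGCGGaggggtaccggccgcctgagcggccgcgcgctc

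*Kdm1a*, the flavin-dependent member, was lowest in microglia of the 384-well pools. In neurons it was at 13.6 and 15 RPKM in the 96-well pools and at 9.46, 9.92, 8.96 and 10.8 RPKM in the 384-well pools, in the order of pools used above. In microglia the values were 11.5 and 10.9 RPKM in the 96-well and 5.51, 4.37, 4.81 and 5.37 RPKM in the 384-well pools. Neurons were above microglia of the same pool in 6 of 6 pools, by 0.75 ± 0.19 (limma adjusted p = 0.00393), although the difference was 0.35 within the 96-well pools (adjusted p = 0.182) and 0.95 within the 384-well pools, and centring each profile on its median turned it to -0.30 (adjusted p = 0.227). Oligodendrocytes, between 6.28 and 10.5 RPKM, did not pass the test against neurons (neurons minus oligodendrocytes 0.35, 95% interval -0.07 to 0.76, limma adjusted p = 0.151) or microglia (microglia minus oligodendrocytes -0.40, -0.82 to 0.01, adjusted p = 0.109). By the mean of log2(RPKM + 1) over nuclei, neurons were above oligodendrocytes by 1.17 (adjusted p = 5.81e-05).

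*Kdm4b*, a hormone- and hypoxia-responsive member of the KDM4 family, was the highest member of neurons and oligodendrocytes in the 384-well pools. In oligodendrocytes it was at 18.0 and 21.2 RPKM in the 96-well pools and at 51.2, 50.5, 52.6 and 44.4 RPKM in the 384-well pools. In microglia it was at 15 and 11.9, then at 35.6, 29.7, 26 and 36.7 RPKM. Microglia were below oligodendrocytes in 6 of 6 pools (-0.61 ± 0.16, limma adjusted p = 0.00946), a call lost with centred profiles (-0.51, adjusted p = 0.0926) and in the 96-well pools alone (-0.54, adjusted p = 0.148). In neurons the values were 21 and 20.4, then 40.7, 41.3, 45.1 and 34.5 RPKM, and the difference from microglia, 0.44 ± 0.16 (limma adjusted p = 0.0347, 5 of 6 pools), turned to -0.61 (adjusted p = 0.0309) with centred profiles. It was also lost without the WT 96-well pool (adjusted p = 0.0672), the *Ehmt1*Δ/+ 96-well pool (0.119), the *Ehmt1*Δ/+ 384-well pool (0.0733) or the iTg pool (0.102).

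*Kdm4c*, the third KDM4 member, gave no call between cell types on the log2(mean RPKM + 0.1) scale. It ranged from 6.68 to 14.0 RPKM in neurons (median 7.75), from 3.13 to 12.1 RPKM in microglia (median 8.07) and from 6.00 to 13.3 RPKM in oligodendrocytes (median 6.96). The differences were 0.16 (95% interval -0.27 to 0.60) for neurons minus oligodendrocytes, 0.27 (-0.17 to 0.70) for neurons minus microglia and -0.10 (-0.53 to 0.33) for microglia minus oligodendrocytes. Centring turned the first of these to -0.79 and the second to -0.78, and the mean of log2(RPKM + 1) gave 0.82 and 0.95, so its direction against neurons depended on the scale.

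**Figure D2:**
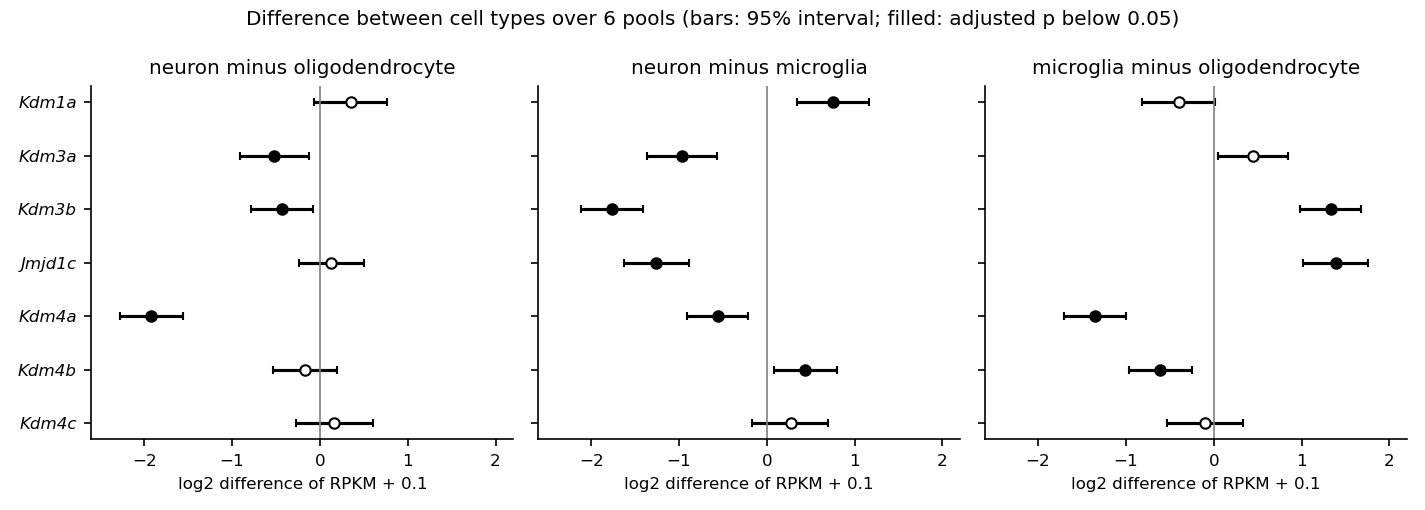
Log2 difference of mean RPKM + 0.1 (x axis) for each member (y axis) in 3 comparisons of cell types over 6 pools, with 95% limma intervals as bars and filled points for an adjusted p below 0.05. *Kdm4a* lies at -1.92 and -1.35 against oligodendrocytes, and *Kdm3b* and *Jmjd1c* lie at 1.33 and 1.39 for microglia minus oligodendrocyte.

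Since RPKM is per length, the members can be ordered within a cell type. By the median of 6 pools, neurons held *Kdm4b* (37.6 RPKM), *Jmjd1c* (13.5), *Kdm3a* (11.5), *Kdm1a* (10.4), *Kdm3b* (8.51), *Kdm4a* (8.48) and *Kdm4c* (7.75). All neighbours in this order overlapped between pools. *Jmjd1c* was above *Kdm3a*, *Kdm3a* above *Kdm1a* and *Kdm1a* above *Kdm3b* in 6 of 6 pools each, whereas *Kdm4b* was above *Jmjd1c* in 4 of 6 and *Kdm3b* above *Kdm4a* in 3 of 6. In microglia *Jmjd1c* (31.1), *Kdm3b* (29.1), *Kdm4b* (27.8) and *Kdm3a* (26.8) were close to one another and all 4 medians lay above *Kdm4a* (12.5), *Kdm4c* (8.07) and *Kdm1a* (5.44); the gap from *Kdm3a* to *Kdm4a* was free of overlap. In oligodendrocytes *Kdm4b* (47.5) and *Kdm4a* (30.6) led, and *Kdm4a* did not overlap the next member, *Kdm3a* (17.6). *Jmjd1c* (14.3), *Kdm3b* (10.7), *Kdm1a* (9.72) and *Kdm4c* (6.96) followed. The first places changed in the 96-well pools, where *Kdm4a* (28.1 and 28.4) lay above *Kdm4b* (18.0 and 21.2).

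The plate format moved several of these levels. *Kdm4b* was higher in 384-well than in 96-well pools, with ratios of means of 1.95 in neurons, 2.38 in microglia and 2.54 in oligodendrocytes, and the pools of the formats did not overlap in any cell type. *Kdm4c* and *Jmjd1c* went the other way without overlap, with ratios of 0.538, 0.543 and 0.549 for *Kdm4c* and 0.576, 0.521 and 0.761 for *Jmjd1c*. *Kdm3b* stayed between 1.07 and 1.25 and overlapped in each cell type. Format, mice, plates and the presence of the transgene cannot be told apart here, so levels were compared between cell types within pools.

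Almost every neuron had reads of each member. The share of neurons above 0 was between 94.5% and 100.0% over members and pools. In 384-well microglia, *Kdm1a* was above 0 in 30% of 20 iTg nuclei (exact Clopper-Pearson 95% interval 11.9% to 54.3%, which covers counting error only) and *Jmjd1c* in 95% of the same nuclei (75.1% to 99.9%). To set depth aside, each nucleus was thinned to 43371 reads, which left out nuclei with fewer, all of them glia of the 384-well pools, where between 7 and 12 microglia and between 30 and 59 oligodendrocytes were kept per pool. The median share over pools then was 83% in neurons, 59.3% in microglia and 56% in oligodendrocytes for *Kdm1a*, against 98.2%, 65.7% and 64.7% in the same nuclei before thinning and 98.2%, 46.1% and 61% in all nuclei. For *Kdm4a* it was 78.1%, 70.6% and 94.2% after thinning, against 97.9%, 75% and 96.7% in the same nuclei before it and 97.9%, 72.5% and 94.3% in all nuclei. *Jmjd1c* was at 99.5%, 100.0% and 94.5% after thinning.

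Values varied between nuclei of a pool as well. In neurons the coefficient of variation over nuclei lay between 0.385 and 0.492 for *Kdm4b* and between 0.420 and 0.512 for *Jmjd1c*, and between 0.549 and 0.735 for *Kdm3a*. Over the excitatory neurons of a pool, the 21 pairs of members had median Pearson correlations of log2(RPKM + 1) between -0.10 and 0.09, which share library and depth and are given as a description.

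The second question was whether neuron classes differ in these genes. Neurons were called excitatory or inhibitory by the larger of *Slc17a7* (the glutamate transporter VGLUT1) and *Gad1* (a GABA-synthesizing enzyme), which gave 1324 excitatory nuclei of 1664 neurons and left out 7 with neither, the rest being inhibitory. With the pool as a block over 12 profiles, 1 member was higher and 2 were lower in inhibitory neurons, beside 21.3% higher and 19.2% lower of 25586 genes tested (40.5%). The split was the same with centred profiles (18.4% and 21.5% of all genes) and with the mean of log values (19.9% and 25.1%). *Kdm3a* was at 16.1, 16.1, 10.9, 11, 12.6 and 12.5 RPKM in excitatory and at 13.2, 11.9, 6.95, 7.23, 7.65 and 7.0 RPKM in inhibitory neurons of the same pools, again with the 96-well pools first. Within each plate format the classes did not overlap, while over both formats they did. The difference was -0.58 ± 0.09 (limma adjusted p = 0.00196, lower in 6 of 6 pools).

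*Kdm4a* went the other way, with 7.31, 6.23, 8.89, 9.85, 8.37 and 7.70 RPKM in excitatory and 8.55, 6.87, 10.8, 12.1, 11 and 9.81 RPKM in inhibitory neurons. It was higher in inhibitory neurons of 6 of 6 pools, although the ranges of the classes overlapped over pools (0.28 ± 0.07, limma adjusted p = 0.0135). *Jmjd1c* was at 22.5, 23.3, 11.9, 12.2, 13.1 and 14.9 RPKM in excitatory and at 17.8, 17.7, 9.26, 12.2, 10.7 and 12.6 RPKM in inhibitory neurons. Its difference of -0.27 ± 0.08 (limma adjusted p = 0.0286, lower in 5 of 6 pools) lost the call when any pool but the *Ehmt1*Δ/+ 384-well one was left out, with adjusted p between 0.0576 and 0.0783. *Kdm1a* was higher in inhibitory neurons of 6 of 6 pools but did not pass the test (0.18 ± 0.07, limma adjusted p = 0.0646). With only nuclei above 0 for exactly 1 of *Slc17a7* and *Gad1*, 1 member was called, *Kdm4a*, beside 23.2% of all genes, and *Kdm3a* was at -0.51 (adjusted p = 0.0564).

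**Figure D3:**
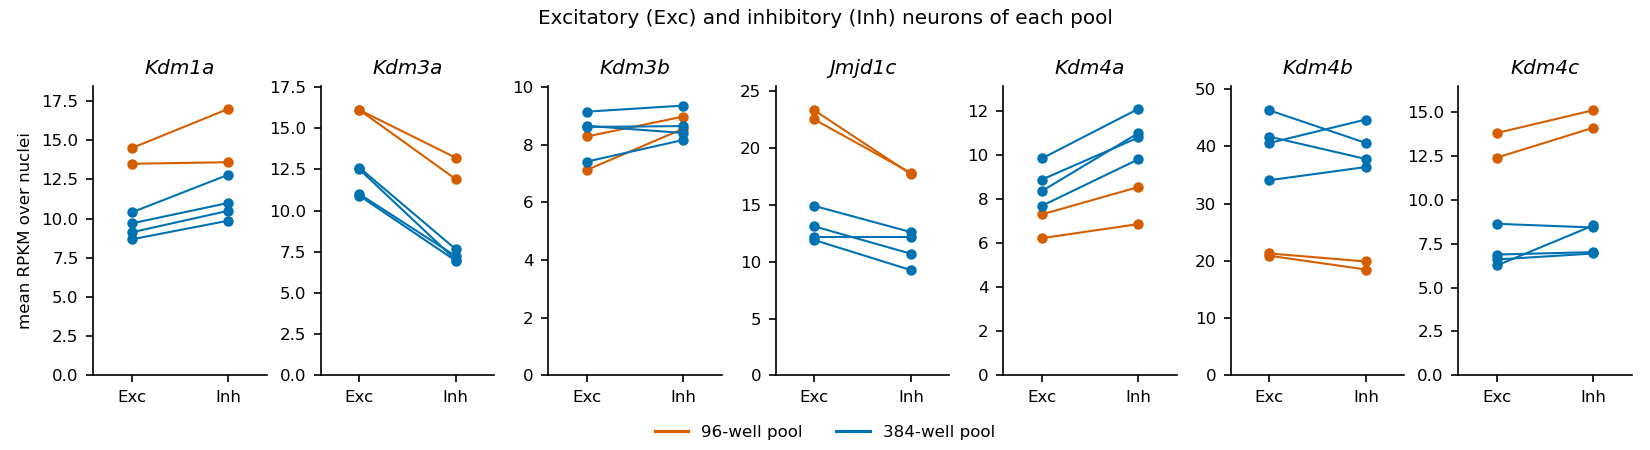
Mean RPKM over nuclei (y axis, linear, from 0) of each member in excitatory and inhibitory neurons, with a line joining the classes of each of 6 pools, coloured by plate format. The *Kdm3a* line falls in 6 of 6 pools and the *Kdm4a* line rises in 6 of 6.

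The third question was whether the demethylases change where GLP is reduced. *Ehmt1*Δ/+ was compared with WT over the 4 pools without *CamKII-CreER*, blocking on plate format, which leaves 1 residual degree of freedom, so only large differences could be called. By limma, 0 of 7 members were called in each cell type, beside 0% of 23853 genes in neurons, 13686 in microglia and 12832 in oligodendrocytes. At an unadjusted p below 0.05, 0 members passed in each cell type, beside 10.2%, 1.93% and 4.72% of all genes, and a model over all 6 pools called 0 genes too. In oligodendrocytes, the mean of log2(RPKM + 1) over nuclei called 6 genes and limma's trend option 2, none of them a member.

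In neurons the 7 differences lay between -0.19 and 0.11. *Kdm3b* was at 7.39 RPKM in *Ehmt1*Δ/+ and 8.45 RPKM in WT of the 96-well plates, and the 384-well plates gave 7.54 and 8.57 RPKM. It was thus lower in *Ehmt1*Δ/+ in both formats (log2 difference -0.19, 95% interval -0.48 to 0.11, limma adjusted p = 0.599). *Jmjd1c* was higher by 0.06 in 96-well and by 0.12 in 384-well plates (0.09, -0.21 to 0.39). *Kdm4a* was at -0.26 in 96-well and 0.11 in 384-well plates, and so the formats disagreed in direction. Within the 3 plate codes shared by both genotypes of the 96-well format, *Kdm3b* was at 7.23 against 8.48 RPKM in neurons.

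In glia the intervals were wider. *Kdm3b* was at 23.9 against 30.7 RPKM in microglia of the 96-well and 19.4 against 28.3 RPKM in those of the 384-well plates (-0.45, 95% interval -1.92 to 1.01, limma adjusted p = 0.921). In oligodendrocytes *Ehmt1*Δ/+ and WT gave 9.41 and 9.93 RPKM in 96-well and 9.69 and 13.6 RPKM in 384-well plates (-0.28, -1.09 to 0.53). Of the 7 members, *Kdm3b*, whose level is uncertain as said above, was the 1 with lower values in *Ehmt1*Δ/+ in both formats of all 3 cell types. No comparison passed the test. The pair left out of this fit, *Ehmt1*Δ/+; iTg against iTg, shared a plate code, unlike the 384-well pair in the fit, and did not repeat the pattern. There *Kdm3b* was higher in neurons (9.18 against 8.57 RPKM) and oligodendrocytes (13.6 against 11.5 RPKM), and lower in microglia (29.8 against 42.1 RPKM). *Kdm4c* in oligodendrocytes was higher by 0.35 in each format (0.35, -0.40 to 1.10, limma adjusted p = 0.879), at 13.3 against 10.4 RPKM in 96-well and 7.74 against 6.06 RPKM in 384-well plates. The WT 96-well glia that carry neuron RNA are 1 side of each 96-well value, and the part of that RNA in these differences was not tested.

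The pools labelled with *CamKII-CreER*, the driver meant to turn the *Ehmt1* transgene on, were compared with those labelled without it. This was done within each *Ehmt1* genotype of the 384-well pools. By the study's own description the same pools would differ in the transgene, and which of these the comparison reads cannot be told apart here. It again had 1 residual degree of freedom. The iTg and WT pools also differed in plate code, while *Ehmt1*Δ/+; iTg and *Ehmt1*Δ/+ shared theirs. By limma, 0 of 7 members were called in neurons, beside 0% of 23068 genes, and 0 members were below an unadjusted p of 0.05, beside 350 of all genes. A model over all 6 pools called 0 genes as well, and centred profiles called 1 gene higher and 8 lower, none of them a member. The differences lay between -0.21 for *Kdm4a* (95% interval -0.82 to 0.39) and 0.20 for *Jmjd1c* (-0.39 to 0.80). *Ehmt1* itself was at 20.7 RPKM in iTg against 19.5 RPKM in WT neurons. It was at 33.9 RPKM in *Ehmt1*Δ/+; iTg against 31.7 RPKM in *Ehmt1*Δ/+ neurons. Gene-level *Ehmt1* RNA thus differed little, and whether the transgene was on in these nuclei was not tested.

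**Figure D4:**
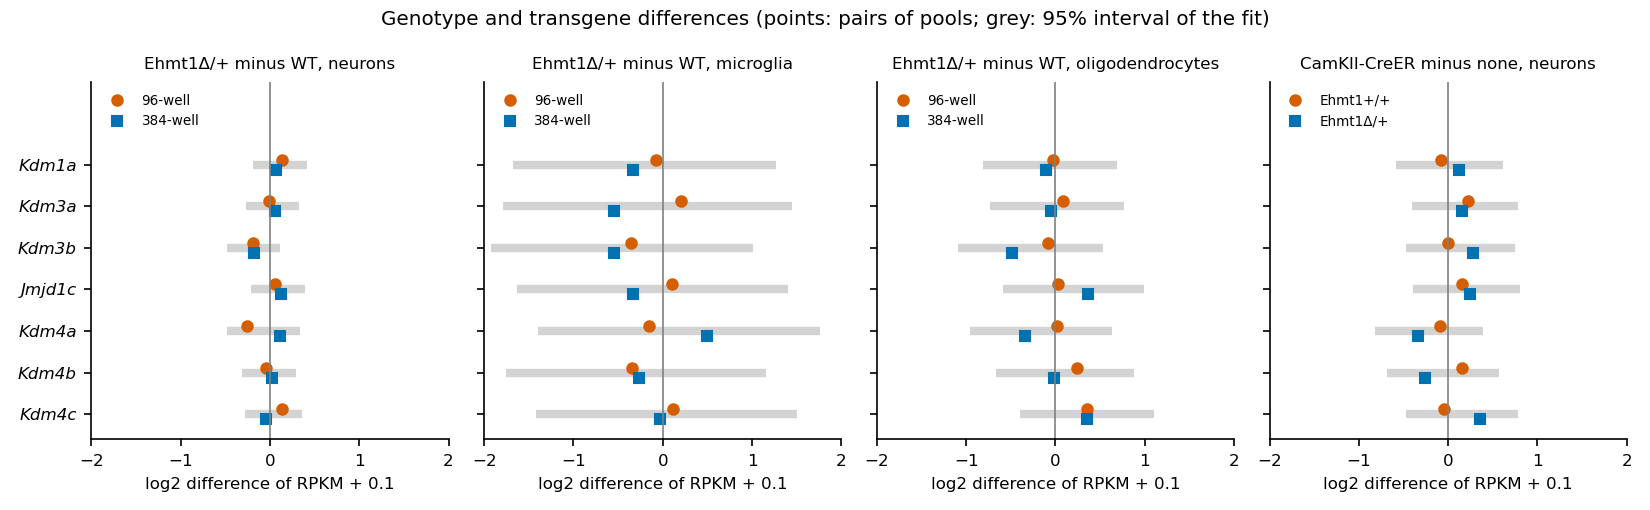
Log2 differences of mean RPKM + 0.1 (x axis) of each member for *Ehmt1*Δ/+ minus WT in 3 cell types and for *CamKII-CreER* minus none in neurons, with a point for each pair of pools and a grey bar for the 95% limma interval. Every interval spans 0, and the bars are narrowest in neurons.

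The other genes of H3K9 methylation were taken from lists by the same fit. Of 6 further demethylases linked to H3K9 and related lysines, 2 were higher and 1 lower in neurons than in oligodendrocytes. Of all genes tested, 38.7% were higher and 12.6% lower (51.3% in either direction). The median difference of the 6 was -0.09 (0.61 over all genes tested). *Kdm7a*, an H3K9 and H3K27 demethylase, had medians of 5.34 RPKM in neurons, 8.12 in microglia and 1.22 in oligodendrocytes (1.83 ± 0.22, limma adjusted p = 1.36e-05). *Phf2*, an H3K9 demethylase, was lower in neurons, at 9.13 against 16.5 RPKM in oligodendrocytes (-0.78 ± 0.15, limma adjusted p = 0.000850). Its direction turned with the mean of log2(RPKM + 1) over nuclei. *Kdm4d* was at 1.11 RPKM in neurons and 0.398 in oligodendrocytes (1.53 ± 0.40, limma adjusted p = 0.00633). It was near the floor, at 0 RPKM in the lowest oligodendrocyte pool. The *Kdm4d* difference ran from 0.11 to 3.72 over pools, with means of 0.50 in 96-well and 2.05 in 384-well pools.

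Among 11 partners of LSD1 in CoREST-type complexes, 3 were higher and 2 lower in neurons than in oligodendrocytes (median -0.03), beside 38.7% and 12.6% of all genes. *Zmym3* was at 40.9 against 12.6 RPKM (1.48 ± 0.20) and *Hdac2*, a histone deacetylase, at 4.59 against 1.86 RPKM (1.25 ± 0.29), while *Rcor1*, which encodes CoREST itself, was at 8.29 against 4.91 RPKM (0.89 ± 0.24). *Hmg20b* was lower in neurons, at 3.46 against 9.11 RPKM in oligodendrocytes and 25.6 RPKM in microglia (-1.38 ± 0.22 against oligodendrocytes). With centred profiles *Rcor1* turned to -0.06.

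Of 13 H3K9 methyltransferases, partners and HP1 genes, 3 were higher and 3 lower in neurons than in oligodendrocytes (median 0.07), beside 38.7% and 12.6% of all genes. *Setdb2* (0.993 against 3.39 RPKM, -1.60 ± 0.46), *Suv39h1* (2.03 against 6.13 RPKM, -1.48 ± 0.33) and *Atf7ip*, a partner of SETDB1 (9.44 against 22.4 RPKM, -1.27 ± 0.13), were lower in neurons, and *Suv39h2* was higher (1.32 against 0.552 RPKM, 1.36 ± 0.43). Both *Setdb2* and *Suv39h2* were low, at 0.614 RPKM in the lowest neuron pool and 0.185 RPKM in the lowest oligodendrocyte pool, respectively. The *Suv39h2* difference ran from 0.14 to 1.92 over pools. *Ehmt2*, which encodes G9a, was higher in neurons in 6 of 6 pools (0.40 ± 0.15, limma adjusted p = 0.0362), but the call was lost with any of the 6 pools left out (adjusted p between 0.0535 and 0.0931) and centring turned the value to -0.55 (adjusted p = 0.0547). *Ehmt1* differed by 0.07 (95% interval -0.27 to 0.41), which centring turned to -0.88 (adjusted p = 0.00473). Of 10 demethylases of other histone lysines, 2 were higher and 1 lower in neurons (median -0.14), beside the same shares of all genes. *Kdm6a*, an H3K27 demethylase, was at 7.27 RPKM in neurons and 26.9 in oligodendrocytes (-1.77 ± 0.19, limma adjusted p = 5.51e-06), with *Kdm6b*, its H3K27 relative, at 14.6 and 9.58 RPKM (0.72 ± 0.20) and *Kdm5b*, an H3K4 demethylase, at 11.2 and 7.12 RPKM (0.71 ± 0.22), the last 2 turning to -0.23 and -0.24 with centred profiles.

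The genes whose levels were most like those of each member were taken by Pearson's r of log2(RPKM + 0.1) over the 18 profiles, which share pools and plate formats, as a description. *Kdm4a* was most like *Kctd13* (0.98), *Rgs3* (0.97) and *Fnbp1* (0.97), and all 3 had their highest median in oligodendrocytes, with 130.3 RPKM for *Kctd13* there. *Jmjd1c* was most like *Mlec*, *Slain2* and *Mcl1* (0.96 each), and *Kdm3b* was most like *Supt20* (0.97), *Zfp691* (0.96) and *Hnrnpul1* (0.96), each with its highest median in microglia. *Kdm3a* was most like *Nipbl* (0.92), *Zrsr2* (0.92) and *Nono* (0.91). Among the genes most like *Kdm4b* were *Sympk* (0.96) and the pseudogene *Mrip-ps* (0.94), and *Kdm4c* was most like *Rb1cc1*, *Btf3l4* (0.95 each) and *Paxbp1* (0.94), with *Btf3l4* at 0.13 over the 96-well pools alone. For *Kdm1a* the closest rows were the pseudogene *Rpl15-ps4* (0.95) and the miRNA genes *mmu-mir-7650* (0.94) and *Mirlet7f-1* (0.93), each with a median of 0 RPKM in microglia, and over the 96-well pools alone the miRNA genes were at 0.48 and 0.35. Between members, *Kdm3a*, *Kdm3b* and *Jmjd1c* had r of 0.77, 0.73 and 0.73 with one another.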

How the data were processed

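Single nuclei of mouse cortex were profiled by RamDA-seq and labelled by the authors, from expression, as neurons, microglia or oligodendrocytes. The deposited RPKM values (reads scaled by gene length and library size) were made by the authors from gene counts on mm10; the submitters' processing notes name HISAT2 2.0.4, Subread 1.5.0, featureCounts, FastQC and bcl2fastq 1.0. Here RPKM was averaged over the nuclei of each pool and cell type (18 profiles), and log2(mean + 0.1) was fitted with limma 3.58.1 (R 4.3.3; Python 3.11.15 for the rest) for genes above 0 in at least 10% of nuclei in at least 3 pools, with Benjamini-Hochberg adjustment and a threshold of 0.05. Scripts were tested on simulated data. Nuclei were not treated as replicates; since no label ties nuclei to mice, p-values measure the spread between pools. Reads were recovered only to give depth and to thin nuclei. No doublet caller was run on these sorted plates. The named genes were the 7 members, *Ehmt1*, *Ehmt2*, up to 4 called genes of each list with the largest neuron minus oligodendrocyte difference, and the 3 genes most like each member, passing over predicted genes; 1 of these is not reported here. Members and lists were chosen with earlier results of these data known. Alternatives were other pseudocounts, no filter, depth weighting, the mean of log values, centring, limma's trend, pools left out, each plate format alone, no format block, a model over all 6 pools and a stricter neuron class.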

Additional observations from a re-analysis of the deposited data

Results flagged for a closer look

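The *Ehmt1*Δ/+ minus WT difference of *Kdm1a*, on the log2(RPKM + 0.1) scale, was 0.11 in neurons and -0.20 in microglia, and each of the 2 plate formats went up in neurons and down in microglia. The same gene was at 0.11 in neurons and -0.06 in oligodendrocytes, again with both formats in opposite directions. Within the 3 plate codes shared by both genotypes of the 96-well format, *Kdm1a* was at 0.14 in neurons, -0.30 in microglia and 0.03 in oligodendrocytes. In oligodendrocytes it thus went the same way as in neurons there. These were 2 of 21 pairs of cell types looked at over the 7 members, the differences between cell types were not tested, and 0 members were called in any of these cell types. None of 35 groups of 6 pools held a pool that stood apart by Dixon's test.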

How the results depend on the processing

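No paired analysis was possible because the replicate numbers only name nuclei and do not tie samples across groups. Pairing by other means was used: cell types and neuron classes were compared within pools, and genotypes also within 3 shared plate codes of the 96-well format. Among the recomputed values of called member differences, 31 kept direction and lost the call, 5 changed direction and the others kept both; of 477 for members not called, 442 stayed as they were, 13 became called, 2 moved and 20 changed direction. Members called for neuron minus oligodendrocyte numbered 3 (51.3% of all genes), and 7 with centred profiles, 1 in the 96-well pools alone (42.8% of all genes), 1 in the 384-well pools alone (43.7%) and 1 to 2 with a pool left out; for inhibitory minus excitatory neurons they numbered 3 (40.5%), and 1 with the stricter class (23.2%). Centring turned neuron minus oligodendrocyte to -0.61 (*Kdm1a*), -0.79 (*Kdm4c*), -0.82 (*Jmjd1c*), -0.06 (*Rcor1*), -0.23 (*Kdm6b*), -0.24 (*Kdm5b*), -0.88 (*Ehmt1*) and -0.55 (*Ehmt2*), neuron minus microglia to -0.30 (*Kdm1a*), -0.61 (*Kdm4b*) and -0.78 (*Kdm4c*), *Ehmt1*Δ/+ minus WT neurons to 0.05 (*Kdm4b*) and *CamKII-CreER* minus none to -0.05 (*Kdm1a*). The mean of log values turned neuron minus oligodendrocyte to 0.31 (*Kdm3a*), 0.16 (*Kdm3b*), 0.43 (*Kdm4b*) and 0.23 (*Phf2*), neuron minus microglia to 0.25 (*Kdm4a*), *CamKII-CreER* minus none to -0.02 (*Kdm1a*), and *Ehmt1*Δ/+ minus WT to 0.01 in neurons (*Kdm4b*), 0.19 (*Kdm3a*) and -0.02 (*Ehmt2*) in microglia and -0.26 (*Kdm3a*) and -0.07 (*Kdm4b*) in oligodendrocytes. The model over 6 pools turned *Ehmt1*Δ/+ minus WT to 0.01 (*Kdm1a*), -0.03 (*Kdm3a*) and -0.01 (*Kdm4b*) in oligodendrocytes and -0.07 (*Ehmt2*) in microglia, and depth weighting gave -0.03 (*Kdm3a*, oligodendrocytes). The 96-well pools alone gave 0.08 for *Kdm4b* (neuron minus oligodendrocyte) and 0.14 for *Kdm1a* (microglia minus oligodendrocyte), leaving out the iTg pool gave 0.06 for *Kdm4c* (microglia minus oligodendrocyte), and the stricter neuron class gave 0.08 for *Kdm4b*. The cause was not tested. Low depth of 384-well glia, different 384-well plate codes of WT and *Ehmt1*Δ/+ and 1 residual degree of freedom limit the genotype comparisons.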

Other observations

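Genes around the H3K9 demethylases also differed between neuron classes by the same fit (limma adjusted p, inhibitory minus excitatory over 6 pools, 21.3% of all genes higher and 19.2% lower). Of 11 partners of LSD1, 3 were higher and 3 lower in inhibitory neurons, and of 6 further demethylases 2 were higher and 2 lower. The genes named here were chosen after their values were seen. *Rcor2*, a CoREST family gene, was lower by limma in 6 of 6 pools (-1.46 ± 0.16, adjusted p = 0.000424), as were *Gse1* (-0.96 ± 0.14, adjusted p = 0.00155) and *Rcor1* (-0.30 ± 0.07, adjusted p = 0.0113). *Hdac1*, a deacetylase of the same complexes, was higher in 6 of 6 pools (0.46 ± 0.09, limma adjusted p = 0.00535). *Hr*, a JmjC gene known for its part in hair growth, was lower in 6 of 6 pools (-1.28 ± 0.13, limma adjusted p = 0.000306), and *Suv39h1*, a writer of H3K9me3, was higher in 6 of 6 (0.72 ± 0.08, limma adjusted p = 0.000395).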
